A study of Mus musculus with 16 samples.

Results

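Transcripts of 10 genes of major histocompatibility complex (MHC) class I presentation and of the immunoproteasome were followed in the brain of ageing wild-type and *MRPS5* V338Y mice. The genes are *B2m*, *H2-K1*, *H2-D1*, *Tap1*, *Tap2*, *Tapbp*, *Psmb8*, *Psmb9*, *Psmb10* and *Nlrc5*, which are 10 of the 39179 genes counted. They were chosen by their changes with age and genotype in these same counts, so their changes with age and genotype are given below as a description and not as a test. RNA sequencing covered 16 mice in 4 groups of 4, namely wild-type (MRPS5 WT) and MRPS5 V338Y mice at 3 months and at 19 months of age. The V338Y mice are homozygous for a knock-in amino acid change in MRPS5, a mitochondrial ribosomal protein, which was made to let mitochondria misread the genetic code, and the question of the study is how the aged brain responds to it. The labels give brain as the tissue but speak of muscle in the extraction text, whereas the methods of the study describe cortex. They describe no shared litter, day or batch. In the labels, the titles of all samples of 19 months end in an unexplained N that those of 3 months lack. The p-values below measure the spread between these mice.

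Class I molecules display short peptides from inside the cell to CD8 T cells and natural killer cells. In the usual route, the proteasome cuts cytosolic proteins, the TAP transporter carries the peptides into the endoplasmic reticulum, tapasin holds the transporter near empty class I molecules, and a heavy chain with its peptide and beta-2-microglobulin travels to the cell surface. Interferons induce alternative catalytic subunits that replace those of the standard proteasome and form the immunoproteasome, and they also induce NLRC5, the transactivator of class I genes. In the healthy brain class I expression is low in most neurons and higher in microglia and endothelial cells. All statements below concern transcripts, and in tissue RNA fewer cells of a type and less RNA per cell cannot be told apart.

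Several of these genes lie side by side in the genome (GRCm38 coordinates). The heavy chain genes *H2-K1* (chr17:33996017-34000347, minus strand) and *H2-D1* (chr17:35262730-35267499, plus strand) flank the part of the MHC that holds *Psmb9* (chr17:34181987-34187764, minus strand), *Tap1* (chr17:34187553-34197225, plus strand), *Psmb8* (chr17:34197721-34201454, plus strand) and *Tap2* (chr17:34203527-34216321, plus strand), which together take 34.3 kb. *Tapbp* (chr17:33915899-33929292, plus strand) is the outermost of the 7 genes on chromosome 17, which span 1351.6 kb. *Nlrc5* (chr8:94434356-94527272, plus strand) and *Psmb10* (chr8:105935735-105938444, minus strand) are on chromosome 8. *B2m* (chr2:122147686-122153083, plus strand) lies 5.434 Mb from *Mrps5* (chr2:127587222-127606829, plus strand), the gene that carries the mutation, and is the only one of the 10 on that chromosome. The *Tap1* and *Psmb9* genes overlap by 212 bases on opposite strands, and *B2m*, *Tap2*, *Tapbp*, *Psmb8*, *Psmb10* and *Nlrc5* each overlap at least 1 other annotated gene, so that a small part of their reads may be shared. Of the windows of 1 read length along the longest coding transcript, 67 of 1977 occur in another gene for *H2-D1* (3.39%, mostly *H2-Q1*) and 0 for each of the other 9.

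The promoters of *B2m* and of both classical heavy chains are shown, since these are the most abundant transcripts of the class I molecule itself, with that of *Psmb10*, which had the smallest change with age. RefSeq promoters (GRCm38.p6, 250 bases before to 50 bases after the start) were found for 8 of the 10 genes, all but *Tap2* and *Nlrc5*. Capitals mark matches, on either strand, to the core of the interferon-stimulated response element (GAAA, any 2 bases, GAAA), TTCNNNGAA (the interferon gamma activated site), TGACG (a part of the X2 box of class I promoters), ATTGG (the Y or CCAAT box) and GGATTCC (the centre of the kappa B site of class I enhancers). *B2m* is chr2:122147437-122147736 (plus strand), *H2-K1* is chr17:34000298-34000597 (minus strand), *H2-D1* is chr17:35262844-35263143 (plus strand) and *Psmb10* is chr8:105938343-105938642 (minus strand), each read 5′ to 3′ in the direction of transcription.
B2m: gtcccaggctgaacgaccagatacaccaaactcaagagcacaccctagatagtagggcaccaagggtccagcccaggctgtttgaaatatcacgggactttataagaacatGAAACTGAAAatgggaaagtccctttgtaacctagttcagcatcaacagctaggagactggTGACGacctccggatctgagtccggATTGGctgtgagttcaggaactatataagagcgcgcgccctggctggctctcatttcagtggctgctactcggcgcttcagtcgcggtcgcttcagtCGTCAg
H2-K1: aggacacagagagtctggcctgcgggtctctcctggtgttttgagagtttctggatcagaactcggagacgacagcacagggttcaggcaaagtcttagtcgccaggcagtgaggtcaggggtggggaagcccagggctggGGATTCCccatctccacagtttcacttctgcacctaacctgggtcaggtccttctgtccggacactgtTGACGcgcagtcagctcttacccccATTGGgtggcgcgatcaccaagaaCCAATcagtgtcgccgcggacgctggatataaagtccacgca
H2-D1: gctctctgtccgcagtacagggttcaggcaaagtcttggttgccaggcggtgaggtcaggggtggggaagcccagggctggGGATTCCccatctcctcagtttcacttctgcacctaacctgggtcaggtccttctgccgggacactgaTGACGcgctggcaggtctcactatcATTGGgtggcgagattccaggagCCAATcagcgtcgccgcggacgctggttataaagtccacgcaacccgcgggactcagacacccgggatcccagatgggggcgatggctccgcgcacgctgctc
Psmb10: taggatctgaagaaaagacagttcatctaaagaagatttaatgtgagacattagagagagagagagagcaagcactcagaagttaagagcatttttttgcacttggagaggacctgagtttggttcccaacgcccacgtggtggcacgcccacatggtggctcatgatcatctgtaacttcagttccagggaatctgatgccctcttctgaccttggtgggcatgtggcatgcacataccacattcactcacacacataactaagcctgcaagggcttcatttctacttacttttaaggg
The TGACG letters were in 5 of the 8 promoters (*B2m*, *H2-K1*, *H2-D1*, *Tap1* and *Psmb9*), against 20.8% of 32851 promoters of the same length. ATTGG was in 6 of the 8, against 37.4% of all promoters. GGATTCC was in *H2-K1* and *H2-D1* only, against 3.79% of all, the response element core in *B2m* only, against 3.44%, and TTCNNNGAA in *Psmb8* only, against 8.3%. None of the 5 motifs was found in the *Psmb10* window. The *Tap1* and *Psmb9* windows share 275 bases on opposite strands, so their matches are not independent. These are exact matches of letters in a fixed window and not measured binding. Variants of the 5 motifs were not searched for, so a window without a match may still hold a variant form.

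Levels are given in CPM, that is counts scaled for library size, here with TMM factors over all 16 mice. Total counts per mouse ranged from 6181448 to 19601664. All 10 genes reached at least 10 counts in at least 2 mice of every group, and thus passed the filter on low counts in every comparison. Beyond age, the libraries of the 2 ages differed in other ways. *Xist* and 4 Y-linked transcripts were opposite between the ages, with *Ddx3y* between 96.7 and 128 CPM in the 8 young mice and at 0 counts in the 8 old mice, although the methods of the study call all mice female. Summed cerebellum markers (7 genes) were 406 to 703 CPM in young wild-type mice, 78.7 to 995 CPM in young V338Y mice and 82.5 to 99.9 CPM in the old mice, and pituitary hormone transcripts were at most 2.75 CPM in young and 21.3 to 116 CPM in old mice, with *Prl* and *Cga* at 0 in all young V338Y and *Tshb* at 0 in all old V338Y mice. Summed cortex markers (6 genes) were between 600.3 and 771 CPM in all 16 mice, and neuron, astrocyte and oligodendrocyte markers were present in all groups. Age therefore cannot be told apart here from sex-linked expression, from the piece of tissue taken or from what the N in the titles of the old samples stands for. The V338Y mouse 14 was the only young mouse with cerebellum markers as low as in old mice (78.7 CPM), and its 10 genes summed to 164 CPM, within the range of the other young V338Y mice (163 to 201 CPM). *Mrps5* itself was at 39.3 ± 1.14 and 39.3 ± 3.31 CPM in young and 30.2 ± 1.98 and 30.3 ± 1.72 CPM in old wild-type and V338Y mice (SD, n = 4), with log2 fold changes of 0.003 (SE 0.068) and -0.012 (SE 0.065) between the genotypes. Since the mutation changes an amino acid, this level does not check the genotype labels.

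In wild-type mice, transcripts of 9 of the 10 genes rose between 3 and 19 months and *Psmb10* did not. The 10 genes summed to between 176 and 189 CPM in young and between 611 and 656 CPM in old wild-type mice. The rise was 1.79-fold for *Tapbp*, between 2.75-fold and 6.65-fold for *Tap2*, *H2-D1*, *B2m*, *Psmb8*, *Tap1*, *H2-K1* and *Psmb9* in this order, and 14.3-fold for *Nlrc5*. In V338Y mice the same 9 genes rose, between 1.64-fold for *Tapbp* and 4.87-fold for *Nlrc5*. The 9 genes were past an adjusted p of 0.05 in each genotype, where 31.4% of the 16101 genes tested in wild-type and 23.1% of the 16770 tested in V338Y mice were called as higher. Their young and old mice did not overlap in either genotype, as was the case, with higher values in old mice, for 26.9% and 22.2% of all genes. The 10 genes had a median log2 fold change of 2.19 with age in wild-type and of 1.57 in V338Y mice, beside -0.005 and -0.029 over all genes tested.

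*B2m*, the light chain shared by all class I molecules, was the most abundant of the 10 per kilobase of transcript. Its values were 47.5, 53.1, 45.9 and 51.8 CPM in young wild-type and 43.0, 37.0, 29.9 and 35.9 CPM in young V338Y mice. At 19 months they were 218, 199, 209 and 212 CPM in wild-type and 137, 128, 136 and 133 CPM in V338Y mice. The 4 groups did not overlap at all, with V338Y below wild-type at both ages. Here and below, values are in the order of mouse number, 9 to 12, 13 to 16, 12 to 15 and 17 to 20 in these 4 groups. On the log2 scale it rose with age by 2.08 (SE 0.052) in wild-type mice and by 1.87 (SE 0.083) in V338Y mice.

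*H2-K1*, a classical class I heavy chain, was at 21.8, 18.6, 19.1 and 19.8 CPM in young wild-type and 25.6, 19.9, 18.4 and 19.6 CPM in young V338Y mice. At 19 months its values were 137, 127, 125 and 129 CPM in wild-type and 96.1, 90.8, 103 and 95.8 CPM in V338Y mice. The young genotypes overlapped, while every old V338Y mouse was below every old wild-type mouse. *H2-D1*, the other classical heavy chain of this list, was at 40.03, 47.5, 43.5 and 42.6 CPM in young wild-type and 59.5, 35.3, 51.1 and 45.6 CPM in young V338Y mice. It reached 150, 138, 146 and 143 CPM in old wild-type and 112, 113, 113 and 122 CPM in old V338Y mice, again apart at 19 months only. The log2 rise with age was larger for *H2-K1* (2.73, SE 0.060) than for *H2-D1* (1.73, SE 0.054) in wild-type mice, and 2.20 (SE 0.090) against 1.26 (SE 0.14) in V338Y mice. The ratio of *H2-D1* to *H2-K1* counts accordingly fell with age, from 2.21 ± 0.297 to 1.11 ± 0.0336 in wild-type and from 2.30 ± 0.412 to 1.19 ± 0.0849 in V338Y mice (SD, n = 4).

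*Nlrc5*, whose product binds class I promoters together with other factors, had the largest fold with age in both genotypes, and the lowest counts of the 10 in young wild-type mice. It was at 0.493, 1.06, 0.620 and 1.12 CPM in young wild-type mice, which stand for 4 to 16 counts, and at 0.893, 1.06, 1.55 and 1.54 CPM in young V338Y mice. At 19 months its values were 12.8, 11.99, 11.4 and 13.9 CPM in wild-type and 8.57, 5.73, 5.48 and 5.26 CPM in V338Y mice. The old genotypes were apart, although the V338Y mouse 17 lay well above the other 3 of its group. Its log2 rise with age amounted to 3.84 (SE 0.19) in wild-type mice and to 2.29 (SE 0.23) in V338Y mice.

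The transporter chain *Tap1* was at 2.71, 2.91, 2.30 and 3.53 CPM in young wild-type and 4.02, 4.08, 3.23 and 3.62 CPM in young V338Y mice. It was at 17.3, 16.9, 14.9 and 18.4 CPM in old wild-type and 8.37, 11.4, 10.5 and 10.8 CPM in old V338Y mice. The order of the genotypes was thus opposite at the 2 ages, with an overlap between the young mice. *Tap2*, the partner chain, was at 9.82 ± 0.804 and 9.99 ± 1.10 CPM in young wild-type and V338Y mice and at 27.0 ± 0.792 and 24.4 ± 0.943 CPM at 19 months (SD, n = 4). *Tapbp*, which encodes tapasin, was at 26.3 ± 3.82 and 24.7 ± 1.58 CPM at 3 months and 46.9 ± 2.27 and 40.9 ± 3.05 CPM at 19 months. The old genotypes did not overlap for *Tap2* (26.1 to 28.0 against 23.4 to 25.4 CPM) and overlapped narrowly for *Tapbp* (44.1 to 48.8 against 37.0 to 44.4 CPM).

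**Figure D1:**
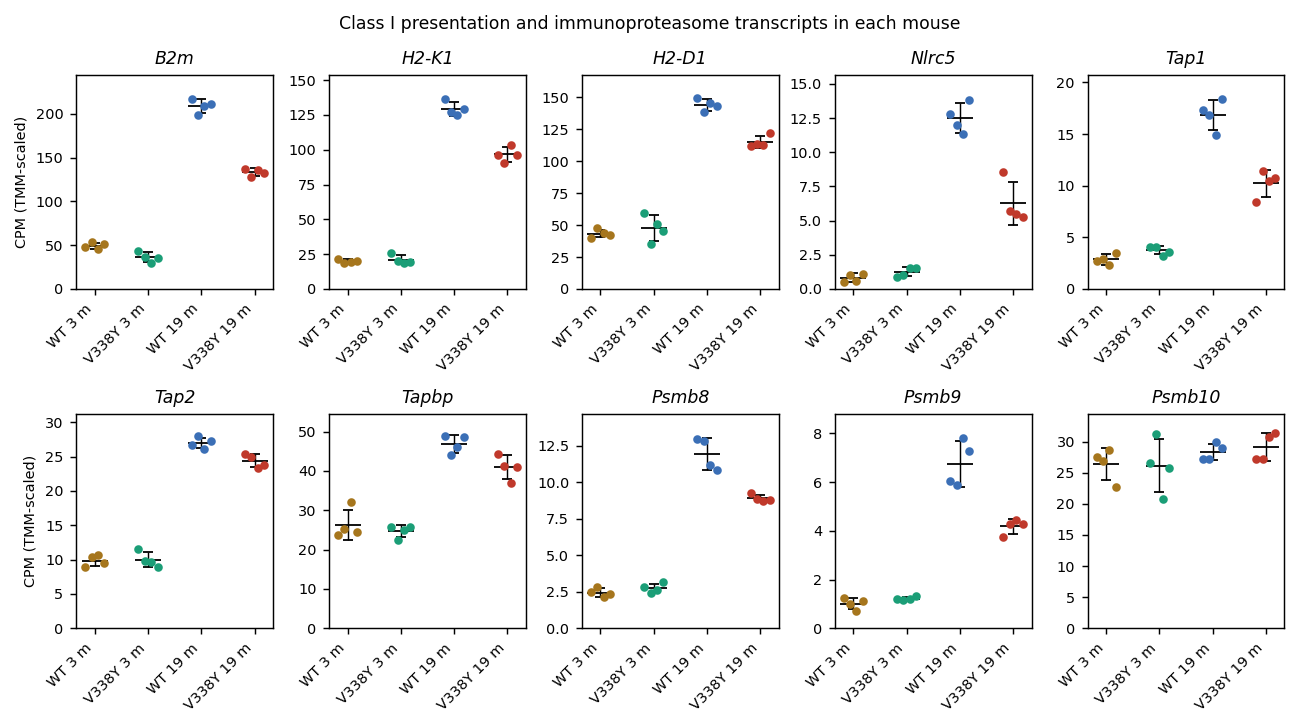
TMM-scaled CPM of each of the 10 genes in each mouse (points), with group means and SD (bars, n = 4), on linear axes that start at 0. At 19 months *Nlrc5* is between 11.4 and 13.9 CPM in wild-type and between 5.26 and 8.57 CPM in V338Y mice, while *Psmb10* is between 20.9 and 31.4 CPM over all 16 mice.

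The immunoproteasome subunits did not move as a unit. *Psmb8* and *Psmb9* rose with age, by a log2 fold change of 2.30 (SE 0.15) and 2.73 (SE 0.21) in wild-type and 1.69 (SE 0.12) and 1.77 (SE 0.16) in V338Y mice. *Psmb10*, the third inducible catalytic subunit, had log2 fold changes of 0.11 (SE 0.078) and 0.15 (SE 0.10) with age and did not pass the threshold in any of the 5 comparisons. *Psmb8* went from 2.44 ± 0.302 to 11.9 ± 1.11 CPM in wild-type and from 2.74 ± 0.313 to 8.90 ± 0.259 CPM in V338Y mice. *Psmb9* went from 1.01 ± 0.225 to 6.74 ± 0.937 CPM and from 1.22 ± 0.0633 to 4.18 ± 0.308 CPM. *Psmb10* was at 26.4 ± 2.59 and 28.3 ± 1.35 CPM in young and old wild-type mice and at 26.1 ± 4.24 and 29.2 ± 2.23 CPM in young and old V338Y mice (SD, n = 4 each).

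Per kilobase of the longest coding transcript, *Psmb10* was the most abundant of the 3 in every group, at 20.2 CPM per kb in young wild-type mice beside 1.498 for *Psmb8* and 0.749 for *Psmb9*. At 19 months the values in wild-type mice were 21.6, 7.33 and 4.99 CPM per kb in the same order. Their standard counterparts are *Psmb5*, *Psmb6* and *Psmb7*, which encode the subunits that *Psmb8*, *Psmb9* and *Psmb10* replace. All 3 fell with age in both genotypes, with log2 fold changes between -0.63 for *Psmb5* in wild-type and -0.41 for *Psmb6* in V338Y mice. *Psmb5* counts carry some doubt, as 14.3% of the windows of its transcript also occur in *Gm3375*. The inducible form made up 3.06% ± 0.305 of *Psmb8* plus *Psmb5* in young and 19.5% ± 1.01 in old wild-type mice, and 3.70% ± 0.596 and 14.4% ± 0.898 in young and old V338Y mice (SD, n = 4, levels per kb). For *Psmb9* with *Psmb6* the shares were 0.687% ± 0.181 and 6.26% ± 0.852 in wild-type and 0.836% ± 0.0817 and 3.68% ± 0.120 in V338Y mice. For *Psmb10* with *Psmb7* they were 20.03% ± 1.53 and 27.8% ± 1.32 in wild-type and 19.6% ± 1.88 and 27.6% ± 1.202 in V338Y mice. Old wild-type and old V338Y mice were apart in the *Psmb8* share (18.2% to 20.6% against 13.5% to 15.5%) and in the *Psmb9* share (5.27% to 7.18% against 3.52% to 3.78%) and overlapped in the *Psmb10* share.

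**Figure D2:**
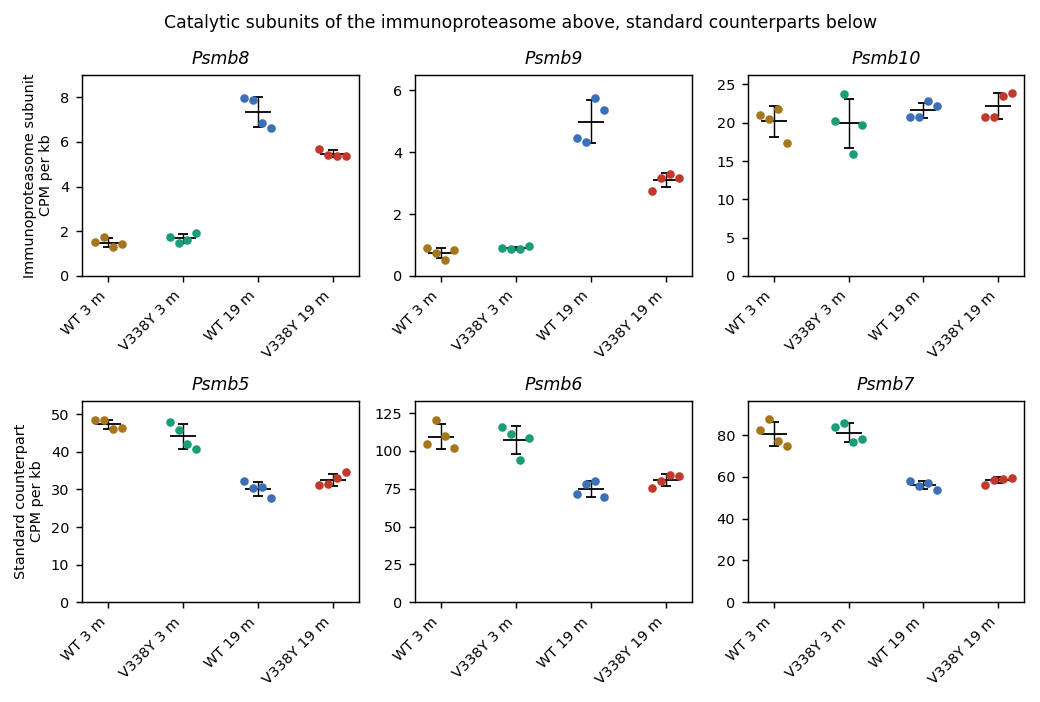
CPM per kilobase of the longest coding transcript for *Psmb8*, *Psmb9* and *Psmb10* (upper panels) and for *Psmb5*, *Psmb6* and *Psmb7* (lower panels), with 1 point per mouse and group mean and SD (n = 4), on linear axes from 0 that differ between panels. The upper panels rise with age for *Psmb8* and *Psmb9* and stay level for *Psmb10* (20.2 and 21.6 CPM per kb in young and old wild-type mice), while the 3 lower panels fall.

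The rest of the proteasome fell with age as a group. Of the 11 other genes of the 20S core, 11 were lower at 19 months in wild-type and 11 in V338Y mice, with a median log2 fold change of -0.46 and -0.39. In wild-type mice the largest falls were in *Psma5* (45.5 ± 1.19 to 29.9 ± 2.33 CPM) and *Psmb4* (120 ± 3.36 to 83.3 ± 3.00 CPM, SD, n = 4). The 19S regulatory particle, which recognises ubiquitinated proteins, had 16 of 17 genes lower in wild-type and 15 of 17 in V338Y mice and none higher. Of the 9 genes of proteasome activators and assembly, 5 fell in each genotype, among them *Psmg1* and *Psmg3*, which encode assembly chaperones. Of these 9, 1 rose in each genotype, namely *Psme1* in wild-type (21.3 ± 1.52 to 24.2 ± 1.87 CPM) and *Psme2* in V338Y mice (16.2 ± 0.808 to 19.6 ± 1.46 CPM). Both encode subunits of PA28, an activator that interferon induces. The young and old wild-type mice overlapped for *Psme1*. The partner subunit did not pass, with log2 fold changes of -0.009 (SE 0.093) for *Psme2* in wild-type and 0.057 (SE 0.086) for *Psme1* in V338Y mice. The 1 rise of 9 stands beside 31.4% and 23.1% of all genes called as higher with age in wild-type and V338Y mice. The falls in these lists stand beside 31.5% and 25.7% of all genes tested that were called as lower with age in wild-type and V338Y mice. On library size alone, without TMM, calls in all genes shifted from 5050 higher and 5065 lower to 4175 and 6321 in wild-type mice, and to 3421 and 5319 in V338Y mice from 3875 and 4306.

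Most of the other heavy chains also rose with age. Of 18 other heavy chain genes, 15 could be tested in wild-type mice, of which 12 were higher and 1 was lower at 19 months, and 11 of 15 were higher in V338Y mice, with medians of 1.24 and 1.12. A gene that reaches the count filter only in old mice had to be higher there, so these counts favour rises. The largest rises were in the closely related *H2-Q6* (0.594 ± 0.171 to 17.4 ± 1.199 CPM in wild-type, 0.438 ± 0.108 to 9.93 ± 1.25 CPM in V338Y mice) and *H2-Q7* (0.238 ± 0.144 to 9.28 ± 1.11 and 0.239 ± 0.150 to 4.88 ± 0.671 CPM, SD, n = 4), between which the assignment of reads is uncertain. Of 10 genes of peptide loading and trimming, 6 rose and 1 fell in each genotype, with medians of 0.22 and 0.20. The rises in both lists stand beside 31.4% and 23.1% of all genes called as higher with age in wild-type and V338Y mice. *Erap1*, the aminopeptidase that trims peptides in the endoplasmic reticulum, rose from 13.6 ± 0.803 to 29.7 ± 1.21 CPM in wild-type and from 12.4 ± 0.660 to 27.6 ± 1.84 CPM in V338Y mice. *Tapbpl*, a peptide editor related to tapasin, rose in both genotypes, and *Tpp2*, a cytosolic peptidase, fell in both.

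Of the 17 transcription factors and regulators listed for class I promoters, 7 rose and 4 fell in wild-type mice, with a median log2 fold change of 0.08, and 5 rose and 5 fell among the 16 tested in V338Y mice. Over all genes tested, 31.4% were called as higher and 31.5% as lower with age in wild-type mice. In V338Y mice these shares were 23.1% and 25.7%, so the counts of this list are near those of all genes. *Irf1*, an interferon-induced activator of class I genes, rose from 6.12 ± 0.625 to 20.02 ± 2.11 CPM in wild-type and from 5.62 ± 0.846 to 15.4 ± 0.8289 CPM in V338Y mice. *Rfxap* and *Nfyb*, parts of the complex that sits on class I promoters, fell in wild-type mice, by 0.63 and 0.34 on the log2 scale. Both also fell in V338Y mice, with log2 fold changes of -0.29 and -0.39. Of 7 interferon receptor and kinase genes tested, 3 rose in wild-type and 4 in V338Y mice, among them *Ifnar2* and *Ifngr1*, while *Ifngr2* fell in V338Y mice (log2 fold change -0.25, SE 0.079). *Ifng* had 0 counts in 3 of the 4 groups and *Ifnb1* in 2, and neither could be tested. Of the 33 interferon-stimulated genes tested, 32 rose in wild-type and 31 in V338Y mice, with medians of 2.38 and 1.85. Of these 33, 29 passed the count filter in the comparison of the young genotypes. The others reached it only in old mice, where they had to be higher, so these counts favour rises. Among interferon-stimulated genes with a mean of 50 or more normalized counts in old mice, the largest rises were in *Iigp1* and *Gbp3* in wild-type mice (log2 fold changes of 3.58 and 3.15) and in *Ifi44* and *Gbp3* in V338Y mice (2.85 and 2.23). Of 9 receptors that bind class I, 2 could be tested. The 8 with a symbol summed to 0.727 to 0.985 CPM in young and 4.22 to 5.48 CPM in old wild-type mice. In V338Y mice these sums were 0.773 to 1.59 CPM in young and 2.62 to 3.65 CPM in old mice, below every old wild-type mouse.

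**Figure D3:**
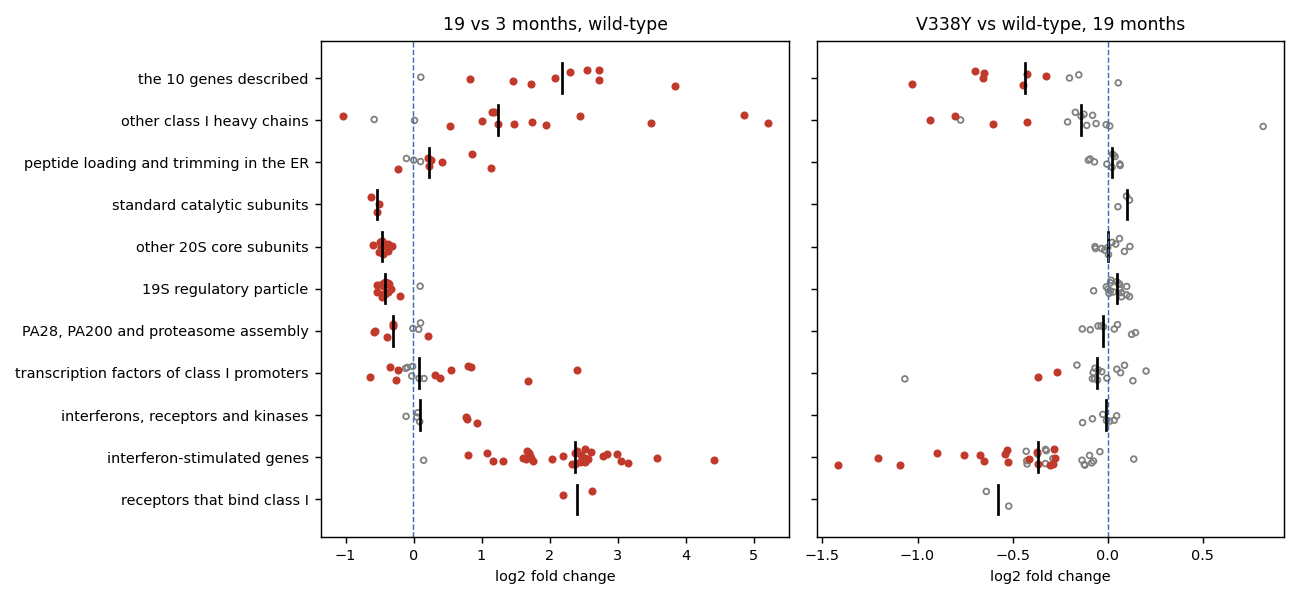
Log2 fold change of every tested gene (points, filled where the adjusted p is under 0.05) in the lists named on the left, with the median of each list as a black bar and that of all genes as a dashed line, for 19 against 3 months in wild-type mice (left) and V338Y against wild-type mice at 19 months (right). With age the 10 genes (median 2.19) and interferon-stimulated genes (2.38) lie to the right and all proteasome lists to the left, and at 19 months the 10 genes (-0.43) and interferon-stimulated genes (-0.37) lie to the left. Listed genes that reach the count filter only in old mice had to be higher with age.

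Cell type markers moved with age in the same mice. Microglia markers (10 genes) summed to 269 to 294 CPM in young and 510 to 538 CPM in old wild-type mice, and to 225 to 314 and 467 to 504 CPM in V338Y mice. Endothelial markers (10 genes) summed to 295 to 308 CPM in young and 1304 to 1378 CPM in old wild-type mice, and to 290 to 306 and 1211 to 1387 CPM in V338Y mice. Perivascular macrophage markers (6 genes) summed to 13.6 to 19.3 CPM in young and 53.7 to 63.0 CPM in old wild-type mice, and all 5 blood and all 7 meninges markers were higher in old mice of both genotypes. Astrocyte markers (7 genes, all higher in both genotypes) summed to 2845 to 3132 CPM in young and 6453 to 7409 CPM in old wild-type mice, with a median log2 fold change of 0.90 there and 0.82 in V338Y mice. Of 8 neuron markers 6 fell in wild-type and 5 in V338Y mice, with medians of -0.41 and -0.34, and of 6 oligodendrocyte markers 4 rose in each genotype and 1 fell in wild-type mice. T cell markers (8 genes) summed to 0.860 to 2.05 CPM in young and 2.74 to 4.22 CPM in old wild-type mice. In V338Y mice these sums were 0.984 to 2.01 CPM in young and 1.51 to 2.66 CPM in old mice, below every old wild-type mouse. *Cd3e* was at 0 in all young wild-type and *Cd3g* at 0 in all young V338Y mice. The sum of the 10 genes divided by that of microglia markers rose with age, from 0.644 ± 0.0374 to 1.202 ± 0.0144 in wild-type and from 0.637 ± 0.0926 to 0.975 ± 0.0285 in V338Y mice, whereas divided by endothelial markers it fell, from 0.605 ± 0.0216 to 0.470 ± 0.0245 and from 0.585 ± 0.0529 to 0.365 ± 0.0209 (SD, n = 4). The part of these cell types in the rise was not tested. Relative to the summed interferon-stimulated genes, the 10 genes were at 1.22 ± 0.105 and 1.17 ± 0.0444 in young and old wild-type mice and at 1.13 ± 0.0801 and 1.15 ± 0.0474 in young and old V338Y mice.

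At 3 months no member of the list passed the threshold between the genotypes (edgeR quasi-likelihood test), where 0.0616% of 16241 genes, 10 in all, were called. Of the 10, 2 had an unadjusted p under 0.05, *B2m* and *Tap1*. *B2m* was lower in V338Y mice, with a log2 fold change of -0.44 (SE 0.092) and no overlap between the genotypes, as was the case for 1.86% of all genes, and with the likelihood-ratio test, DESeq2, no filter on counts or all 16 mice in 1 fit it passed the threshold. The other 9 had log2 fold changes between -0.087 (*Tapbp*) and 0.55 (*Nlrc5*, SE 0.32) and overlapping groups, and the median of the 10 was 0.11. Of 116 genes of the other pathway lists tested at this age, 3 had an unadjusted p under 0.05, and 0 were called by edgeR or DESeq2.

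At 19 months 7 of the 10 genes were lower in V338Y than in wild-type mice and none was higher, where 1.92% of the 16420 genes tested were called as lower. The 7 genes were *Nlrc5*, with a log2 fold change of -1.03 (SE 0.13), *Tap1* (-0.70, SE 0.097), *Psmb9* (-0.65, SE 0.14), *B2m* (-0.65, SE 0.039), *Psmb8* (-0.45, SE 0.099), *H2-K1* (-0.42, SE 0.045) and *H2-D1* (-0.33, SE 0.042). In terms of means, old V338Y mice had between 50.1% (*Nlrc5*) and 79.8% (*H2-D1*) of the wild-type CPM of these genes. *Tapbp* (-0.20, SE 0.060) and *Tap2* (-0.15, SE 0.065) did not pass the threshold and were at 87.3% and 90.4% of wild-type CPM, and *Psmb10* was at 103%. For 8 genes, the 7 and *Tap2*, the old genotypes did not overlap, as was the case, with lower V338Y values, for 4.83% of all genes. The median of the 10 was -0.43, beside -0.0007 over all genes. With all 16 mice in 1 fit, 5 genes passed, without *H2-D1* and *Psmb8*. On library size alone the same number of the 10 genes passed, 7, while the calls in all genes shifted from 196 higher and 316 lower to 357 higher and 263 lower.

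**Figure D4:**
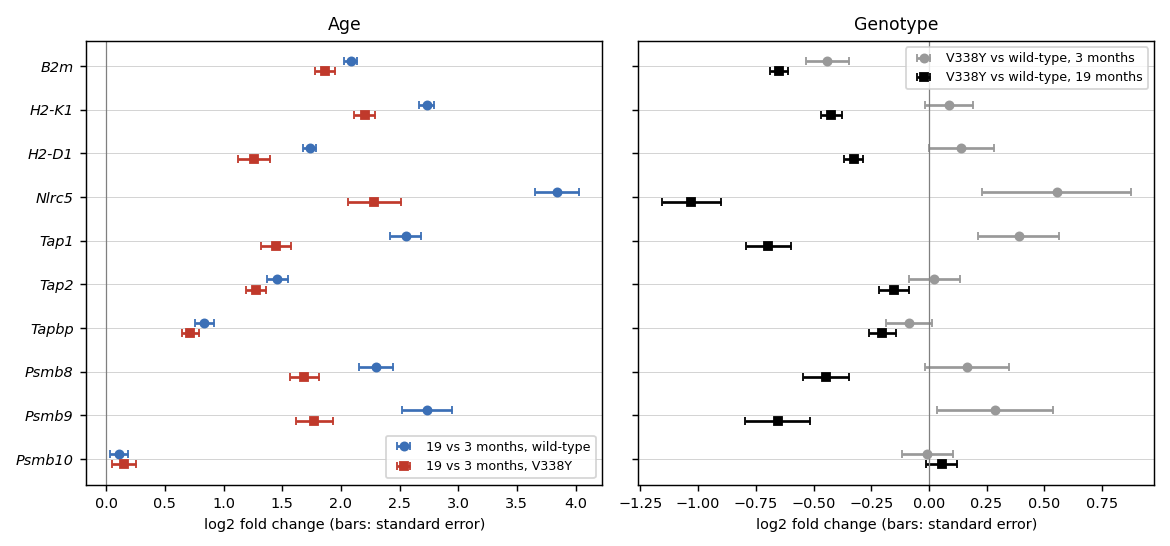
Log2 fold changes of the 10 genes with standard errors (bars), for age in wild-type and V338Y mice (left) and for genotype at 3 and 19 months (right), with 4 mice per group. In the right panel the values at 19 months run from -1.03 for *Nlrc5* to 0.05 for *Psmb10*, and those at 3 months from -0.44 for *B2m* to 0.55 for *Nlrc5*.

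Interferon-stimulated genes were also lower in old V338Y mice. Of 33 tested, 17 passed the threshold as lower and none as higher, with a median of -0.37. The count was 8 with all 16 mice in 1 fit, and 11 without the wild-type mouse 13 or without the V338Y mouse 19. *Igtp*, an interferon-induced GTPase, was at 26.5 ± 1.84 CPM in wild-type and 11.4 ± 0.731 CPM in V338Y mice, a log2 fold change of -1.21 (SE 0.079), and *Iigp1*, another such GTPase, at 17.5 ± 1.58 and 8.34 ± 0.980 CPM (SD, n = 4). Of 15 other heavy chains, 4 were lower, including *H2-Q7* (log2 fold change -0.93, SE 0.13) and *H2-Q6* (-0.81, SE 0.097), and none was higher. *Irf1* was lower, by a log2 fold change of -0.37 (SE 0.082), although with all 16 mice in 1 fit no gene of its list passed. No gene of the standard catalytic subunits, the rest of the 20S core, the 19S particle, the activators and assembly factors, peptide loading and trimming or the interferon receptors passed in either direction. Of their genes, 3 had an unadjusted p under 0.05 (edgeR), and the medians of these lists were between -0.02 and 0.10.

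Of the microglia markers, 4 of 10 were lower in old V338Y mice, with a median log2 fold change of -0.12, and their sums did not overlap (510 to 538 CPM in wild-type, 467 to 504 CPM in V338Y mice). Of 10 endothelial markers 5 had an unadjusted p under 0.05 and 0 passed the adjusted threshold (edgeR), with a median of -0.09. Perivascular macrophage markers (6 genes) had a median of -0.32 and 0 positive values. Of these, 1 was called as lower and 3 had an unadjusted p under 0.05 (edgeR). Blood markers (5 genes) had a median of -0.50 and 0 positive values, and 0 passed the threshold. Of 7 meninges markers 3 were lower and 1 was higher, with a median of -0.24, and of 7 astrocyte markers 2 were lower, with a median of -0.12. The part of these cell types in the difference was not tested. Relative to microglia markers, the sum of the 10 genes was between 1.18 and 1.22 in old wild-type and between 0.938 and 1.01 in old V338Y mice. Choroid plexus markers (7 genes) divided the old V338Y mice, at 2242 and 2279 CPM in mice 17 and 18 and 149 and 255 CPM in mice 19 and 20. The 10 genes summed to 472 and 455 CPM in the first pair and 473 and 476 CPM in the second. Pituitary hormone transcripts summed to 75.6 to 116 CPM in old wild-type and 21.3 to 72.2 CPM in old V338Y mice, with 2 of 4 tested genes called as lower, and their part in the result was not tested.

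*B2m* had 73.5% of the wild-type CPM in young and 63.8% in old V338Y mice. Per kilobase, the ratio of *B2m* to the sum of *H2-K1* and *H2-D1* was 1.75 ± 0.0970 in young wild-type and 1.21 ± 0.213 in young V338Y mice, and 1.64 ± 0.0292 and 1.36 ± 0.0415 at 19 months (SD, n = 4). The genotypes were apart at both ages, from 1.64 to 1.85 against 0.972 to 1.48 in young and from 1.61 to 1.67 against 1.32 to 1.42 in old mice. Without *B2m*, the other 9 genes summed to 133 ± 5.93 and 139 ± 13.4 CPM in young and to 424 ± 11.4 and 336 ± 6.40 CPM in old wild-type and V338Y mice. *B2m* lies among other genes near *Mrps5* that were called between the genotypes. Within 6 Mb, 15 of 139 genes (10.8%) were called between the old genotypes, against 3.05% of all others. Of these 15, 11 were lower in V338Y mice. Both counts include *B2m* itself, which was chosen by its changes in these same counts. At 3 months 2 of 134 were called (1.49%), against 0.0497% of all others. Within 20 Mb, again with *B2m* among the genes tested, the shares were 13.6% at 19 months and 2.29% at 3 months. Close to *B2m*, *Eif3j1* was lower in V338Y mice by log2 fold changes of -1.24 (SE 0.11) at 3 and -1.29 (SE 0.10) at 19 months, and *Bloc1s6* was higher by 0.62 (SE 0.082) and 0.45 (SE 0.082). These 2 neighbours were chosen after their values were seen, as the genes within 6 Mb called at both ages. The segment around *Mrps5* and the V338Y genotype come together in these mice, so their parts in the level of *B2m* cannot be told apart.

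**Figure D5:**
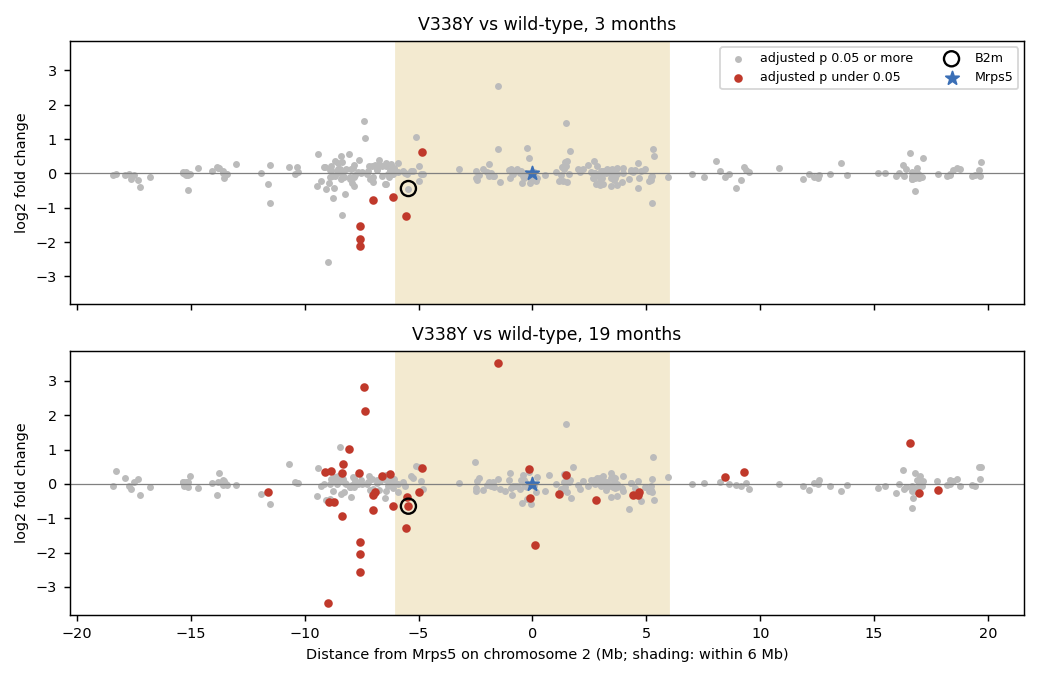
Log2 fold change between V338Y and wild-type mice at 3 months (upper) and 19 months (lower) for genes within 20 Mb of *Mrps5*, against their distance from it in Mb, with genes of an adjusted p under 0.05 in red and the region within 6 Mb shaded. *B2m* (circle) lies at -0.44 and -0.65, and *Mrps5* (star) lies near 0 at both ages.

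Whether age acted differently in the genotypes was estimated as an interaction over all 16 mice. The rise with age was smaller in V338Y than in wild-type mice for 9 of the 10 genes, with a median difference of -0.48 on the log2 scale, and *Tap1* alone passed the threshold, with a difference of -1.09 (SE 0.19), where 0.0535% of 16831 genes were called. The estimates were -1.55 (SE 0.33) for *Nlrc5*, -0.95 (SE 0.26) for *Psmb9*, -0.59 (SE 0.19) for *Psmb8*, -0.51 (SE 0.11) for *H2-K1*, -0.46 (SE 0.15) for *H2-D1* and -0.20 (SE 0.10) for *B2m*, none of which passed. The number of the 10 genes past the threshold was 3 with the likelihood-ratio test, DESeq2 or no filter on counts, and ranged from 0 to 4 when 1 mouse was left out. It was 0 without the wild-type mice 10 and 11 of 3 months, the wild-type mice 12, 13 and 15 of 19 months or the V338Y mouse 19, each in turn, and 4 without the V338Y mouse 14. Among interferon-stimulated genes, *Igtp* (-1.50, SE 0.24) and *Gbp7* (-0.81, SE 0.13) passed, which is 2 of 33, with a median of -0.39. Of 124 genes of all other pathway lists tested, 25 had an unadjusted p under 0.05 and 2 passed, and 4 passed with DESeq2.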

How the data were processed

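The deposited table holds 1 column of expected counts per mouse, which per the methods of the study the authors estimated with RSEM from single-end reads on Ensembl 75 and "GRCm37". The submitters' processing notes name STAR 2.4.2a, bcl2fastq 1.8.4, featureCounts and GRCm38 instead. The deposited expected counts are whole numbers without normalization, with at most 4 significant digits, so that all 1495 values of 5 digits or more end in 0. Symbols and positions were found for 37607 of 39179 identifiers in GENCODE M21 (GRCm38). Library totals were 6181448 to 19601664 counts.

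Groups came from the labels. Each pair of groups was fitted on its 8 libraries with edgeR 4.0.16 in R 4.3.3: genes were kept where 2 or more of the 4 mice of a group reached 10 counts, followed by TMM, robust quasi-likelihood test, Benjamini-Hochberg adjustment over all genes kept, threshold 0.05. The interaction used all 16 libraries. SE is the log2 fold change divided by the root of F. CPM used TMM factors of all 16. Levels per kb used the longest coding transcript. The procedure was checked on simulated counts.

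The 10 genes, the lists and the markers were chosen with earlier results of these data known. In each list the 2 largest rises and falls past the threshold, and with a mean of 50 or more normalized counts in the higher group, are the ones named. Of the genes this rule names, 1 is not reported here. *Gbp6*, *Lilrb4a* and *Lhb* found no identifier. Alternatives were RLE factors, library size only, the likelihood-ratio test, DESeq2 1.42.0, at least 10 counts in every library, no filter, all 16 libraries in 1 fit, and leaving out each mouse. Promoters came from RefSeq (GRCm38.p6).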

Additional observations from a re-analysis of the deposited data

Results flagged for a closer look

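In the old V338Y mice, *H2-D1* was at 122 CPM in mouse 20, apart from the other 3 mice (112 to 113 CPM), and *Nlrc5* was at 8.57 CPM in mouse 17, apart from the other 3 (5.26 to 5.73 CPM). Both were picked because the gap to the nearest mouse took more of the group's range than the 95% critical value of Dixon's test. Of 40 groups of 4 values looked at in this way, 2 were picked, and about 1 in 20 would be by chance. Without mouse 17, the log2 fold change of *Nlrc5* between the old genotypes was -1.18, and without mouse 20 that of *H2-D1* was -0.36. *Tap1* was picked because its rise with age differed between the genotypes, with an interaction of -1.09 on the log2 scale.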

How the results depend on the processing

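No paired analysis was possible, since the study killed its mice at 3 or at 19 months and the groups hold different animals. Mouse number 12 occurs in both wild-type groups, but *Ddx3y* was at 128 CPM in the young and at 0 CPM in the old mouse of that number. Between the genotypes at 3 months, 1 of the 10 genes, *B2m*, passed with the likelihood-ratio test, DESeq2, no filter or all 16 mice in 1 fit (adjusted p = 0.0298, 0.0214, 0.0182 and 0.0084), against 0 in the fit reported and 0 to 0 with 1 mouse left out. At 19 months the number was 7, 6 to 8 with 1 mouse left out, 8 without a filter and 5 with all 16 mice in 1 fit. For age it was 9 to 9 in wild-type and 9 to 10 in V338Y mice with 1 mouse left out, where *Psmb10* passed without the V338Y mouse 14. Psmb9 and Nlrc5 were not tested for age in wild-type mice with at least 10 counts in every library, which left 7. For the interaction it was 3 with the likelihood-ratio test, DESeq2 or no filter, and 0 to 4 with 1 mouse left out.

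Only small values turned their sign. The ranges given here are over all alternatives, among them leaving out each mouse. *Psmb10* at 3 months was between -0.099 and 0.078. It went from -0.0062 to 0.012, 0.0013 and 0.036 without the wild-type mice 9, 10 and 11, and to 0.078 and 0.00053 without the V338Y mice 15 and 16. *Tap2* (-0.045 to 0.074) went from 0.024 to -0.017 without the wild-type mouse 9 and to -0.045 when the V338Y mouse 13 was omitted, *Tapbp* (-0.13 to 0.022) from -0.087 to 0.022 without the wild-type mouse 11, and *H2-K1* (-0.019 to 0.13) from 0.086 to -0.019 without the V338Y mouse 13. The interaction of *Psmb10* (-0.031 to 0.16) went from 0.059 to -0.031 without the V338Y mouse 15. The cause of these moves was not tested. Library size alone moved the median of all genes by less than 0.1. Counts of few reads limit *Nlrc5* and *Psmb9* in young mice.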

Other observations

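Within groups, the 10 genes varied with little order. After the group means were subtracted, the 45 pairs of the 10 genes had a median Pearson r of 0.046 over 16 mice (lowest -0.63, highest 0.67), with 25 pairs above 0 and 1 above 0.5. The mice share depth and dissection, and the values are a description. Among 15226 other genes with a mean of at least 1 CPM, those whose variation within groups was most like the mean of the 10 were *Golim4* and *Tcaim* (r = 0.93 each), *Calu* (0.88), *Hnrnpc* and *Acsbg1* (0.87 each). They are the highest of 15226 values from 16 mice, and the highest of so many can be large by chance. A link of these genes to the 10 was not tested.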
